A study of Bos taurus with 3 samples.

Results

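The proteins of the mitochondrial ribosome were followed in the bovine mammary gland across the onset of lactation. Every gene with a symbol of the form MRPL or MRPS and a number was taken, with no use of its measured level. This gave 68 of the 9154 genes listed in at least 1 of the 3 libraries, 42 with large subunit (MRPL) and 26 with small subunit (MRPS) symbols. Digital gene expression (DGE) counts short tags that begin at a CATG site of the transcript, in principle the site nearest to the poly(A) tail, so that levels are not scaled to transcript length. Tags from other CATG sites also arise, and all tags unique to a gene were summed. Mammary tissue of 18 Holstein cows in their second parity was used, 6 at each time point. The 3 groups were about day 35 before parturition (−35 d, the dry period), about day 7 before parturition (−7 d, late pregnancy) and about day 3 after parturition (+3 d, early lactation). No other treatment, genotype or diet contrast was labelled.

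The tissue of each group was pooled before RNA extraction and gave 1 library. There was thus 1 library per group, and every test below compares 2 libraries and not 2 physiological states. Intervals cover counting error only, since amplified tags do not stand for separate molecules and the spread between cows was not measured. The libraries held 5914422 (−35 d), 5593237 (−7 d) and 5845821 (+3 d) clean tags, and levels are given as TPM, tags per 1000000 clean tags of the library. At these depths the limit that a count of 0 allows (3 tags) was 0.507, 0.536 and 0.513 TPM, respectively.

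Biopsies of mammary tissue were taken without separation of cell types, so that fewer cells of a type and less RNA per cell cannot be told apart. The 5 most abundant milk protein genes (CSN1S1, CSN1S2, CSN2, CSN3 and PAEP) took 0.348%, 4.13% and 22.6% of the clean tags at −35 d, −7 d and +3 d, and a TPM value of any other gene falls as that share grows. The defining markers of mammary epithelium were present: 8 of the 10 markers were listed in all libraries, with medians of 284, 223 and 187 TPM. They summed to 2250, 1769 and 6644 TPM, of which the whey protein gene LALBA made up 3.72, 199 and 5225 TPM, and the other 7 summed to 2246, 1571 and 1419 TPM. Summed markers of other cells were lower at −7 d than in the other libraries for myoepithelium and smooth muscle, adipocytes, macrophages and endothelium. Those of myoepithelium and smooth muscle (8 of 8 markers listed) summed to 862, 512 and 965 TPM, and those of endothelium (6 of 7) to 105, 75.8 and 113 TPM. Adipocyte markers (6 of 7) summed to 279, 169 and 395 TPM, although 3 of the 6 were lower at +3 d than at −7 d. The adipocyte median was 24.4, 18.8 and 15.8 TPM. Macrophage markers, with 8 entries of which 2 were MSR1, summed to 138, 68.5 and 150 TPM. ITGAM and 1 of the 2 MSR1 entries were at 0 at −7 d, and ITGAM was at 0 at +3 d. T cell markers summed to 183, 114 and 117 TPM (8 of 8), B and plasma cell markers to 308, 166 and 177 TPM (4 of 7) and erythrocyte markers to 2.03, 1.79 and 4.11 TPM (3 of 6, with HBB at 0 at −7 d and +3 d). Their part in the differences of the mitochondrial ribosomal protein genes was not tested.

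Mitochondria translate the few proteins of their own genome, all of them subunits of the respiratory chain and the ATP synthase, on a ribosome of their own. Its RNA is mitochondrial, whereas all its proteins are encoded in the nucleus, made on cytosolic ribosomes and imported. The large subunit joins amino acids, and the small subunit holds the mRNA and checks the codons. Many of these proteins descend from bacterial ribosomal proteins and carry their numbers, while the higher numbers were given to proteins first found in mitochondria, although a few of those, such as MRPL47, have since been matched to bacterial ones. Milk synthesis places a high demand for ATP on the secretory cell, and the mammary epithelium is known to gain mitochondria around parturition.

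The tables covered most of the particle. The bovine annotation ARS-UCD2.0, used for names only, has 78 protein-coding MRPL and MRPS symbols, and the accessions of 67 of the 68 genes matched it with the same symbol (MRPL55 did not match). A further 10 symbols of that annotation were not analysed here under those names: MRPL2, MRPL10, MRPL35, MRPL36, MRPL40, MRPL57, MRPL58, MRPS15, MRPS18B and MRPS36. Of these, MRPL57 and MRPL58 stood in the tables as MRP63 and ICT1 and are described with the other subunits that carry names of their own. All 3 libraries listed 66 of the 68 genes. MRPL23, a protein at the exit of the peptide tunnel, had 0, 5 and 10 tags at −35 d, −7 d and +3 d. MRPS17 was listed only at +3 d, with 3 tags, a number at the limit that a count of 0 allows. A further caution applies to MRPL17, named here because of its neighbour and after its values were seen. It had 10, 3 and 2 tags, whereas a gene described as similar to it (MGC152194) had 363, 540 and 452 tags, and near-identical copies can share tags, which the counting left out when they matched several genes.

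Mitochondrial ribosomal protein mRNAs were of moderate abundance. The median gene stood at 17.8 TPM at −35 d, 19.0 TPM at −7 d and 12.1 TPM at +3 d, beside medians over all genes of 12.2, 10.5 and 8.38 TPM. The genes above the all-gene median of their library numbered 51, 52 and 45 of 68 in the same order. Those medians include genes with 0 tags in a library. Among genes whose mean over the libraries reached 1 TPM the all-gene medians were 17.8, 15.7 and 12.7 TPM, and 34, 40 and 34 of 65 mitochondrial ribosomal protein genes were above them. The lowest levels belonged to MRPL17, MRPL23 and MRPS17, whose mean over the libraries was under 1 TPM. These 3 genes were left out of medians, which rest on the 65 genes whose mean level reached 1 TPM (40 large, 25 small) and, for the whole table, on the 7570 genes above the same bound.

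**Figure D1:**
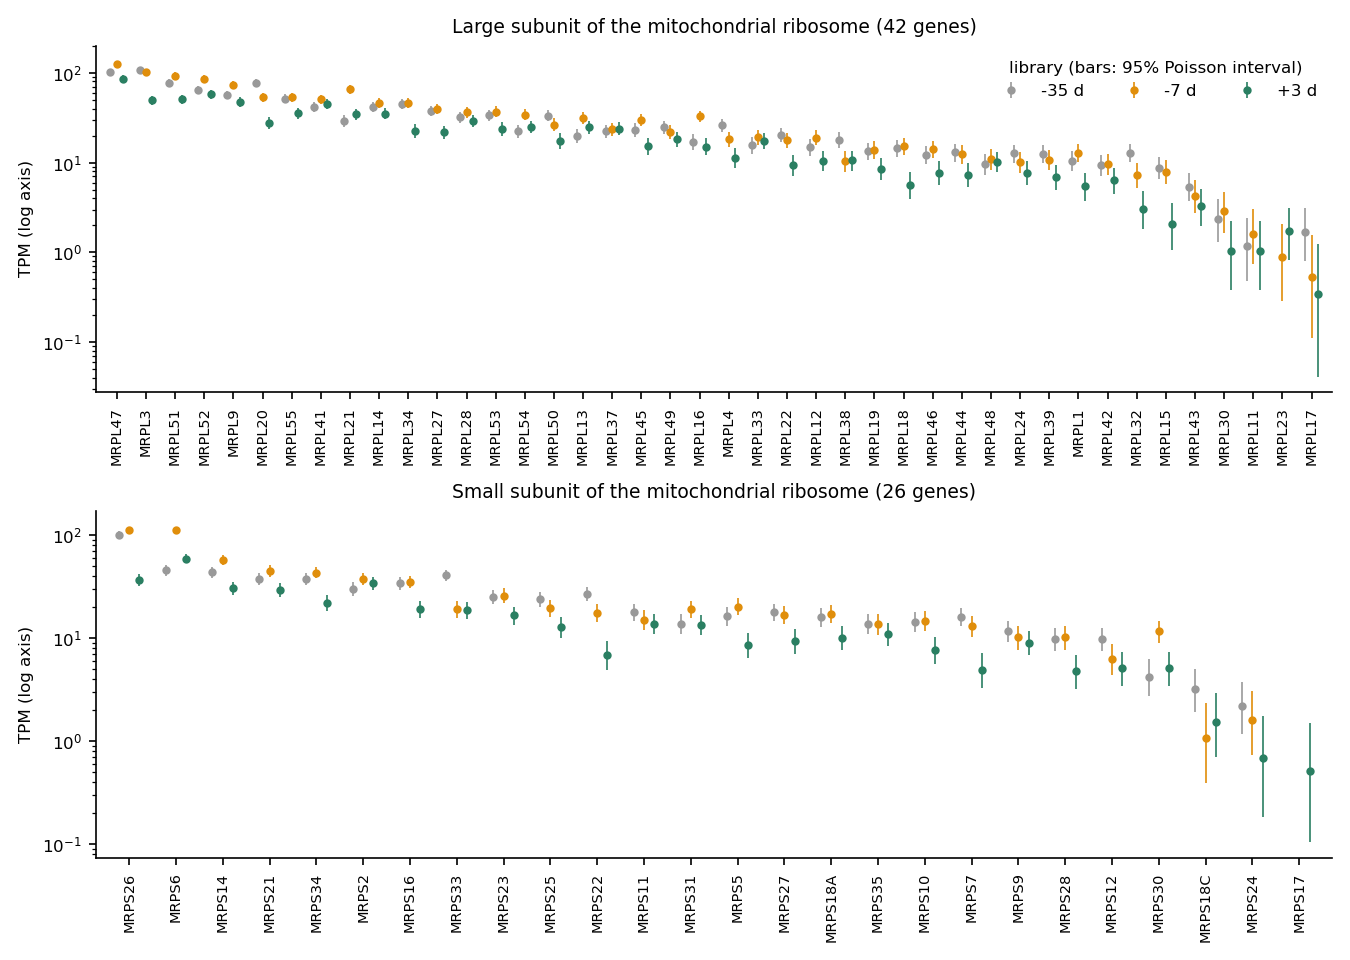
Level of each mitochondrial ribosomal protein gene (TPM, log axis) in the 3 libraries, large subunit above and small subunit below, ordered by the mean over the libraries. Points are single libraries, bars are 95% Poisson intervals of the tag count, and a library with 0 tags has no point (MRPL23 at −35 d, MRPS17 at −35 d and −7 d). Most genes lie between 1 and 125 TPM, and the +3 d point is the lowest for most genes.

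The most abundant transcripts belonged to few genes. MRPL47, a protein near the exit of the peptide tunnel, led at −7 d and +3 d with 102, 125 and 85.5 TPM across the 3 time points. Its 3 counting intervals did not overlap, and the −7 d library was the highest. MRPL3, a core protein of the catalytic subunit, led at −35 d, with 107, 101 and 49.6 TPM. Here the 2 libraries before parturition overlapped and the +3 d library was well below both. MRPS26, a small subunit protein first found in mitochondria, stood at 101, 111 and 36.8 TPM, again with overlap between the first 2 libraries and a lower +3 d library. MRPL51 (76.9, 92.6 and 50.8 TPM) and MRPL52 (65.1, 86.2 and 57.6 TPM), both found only in mitochondrial ribosomes, were also among the 5 highest in at least 1 library and were highest at −7 d. MRPS6, which sits on the platform of the small subunit, moved into this group at −7 d (45.3, 111 and 59.0 TPM), and MRPL20, a protein of early large subunit assembly in bacteria, was in it only at −35 d (77.4, 53.6 and 27.5 TPM).

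Summed over all 68 genes, the level was 1805 TPM at −35 d, 2020 TPM at −7 d and 1234 TPM at +3 d (10674, 11296 and 7214 tags). The sum was 11.9% higher at −7 d than at −35 d, a log2 ratio of 0.16 (95% exact binomial interval 0.12 to 0.20), and at +3 d it was below that at −7 d by a log2 ratio of −0.71 (−0.75 to −0.67). From −35 d to +3 d the ratio was −0.55 (−0.59 to −0.51). Both subunits, as given by the symbols, had this order. The sums were 1194, 1326 and 843 TPM for the large and 611, 693 and 391 TPM for the small subunit. The difference between −7 d and +3 d was larger in the small subunit sum (−0.83, interval −0.90 to −0.75) than in the large (−0.65, interval −0.71 to −0.60), and these intervals did not overlap. Large subunit tags per 100 small subunit tags were 195 (188 to 203), 191 (184 to 199) and 216 (205 to 227). Without MRPS26, left out after its values were seen, the small subunit ratio was −0.72 (−0.80 to −0.64) and its interval overlapped that of the large subunit.

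**Figure D2:**
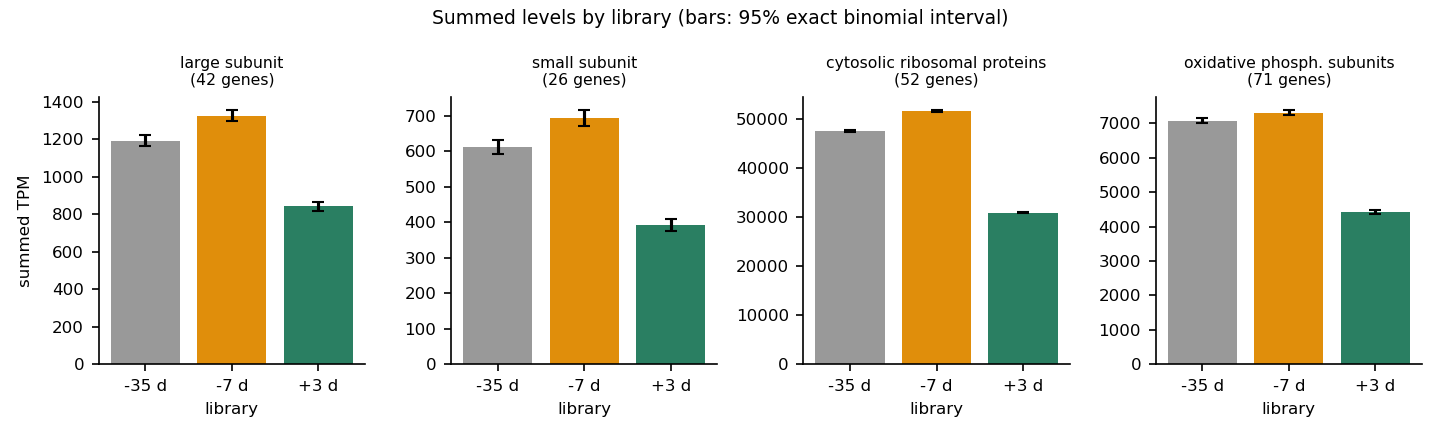
Summed level (TPM, bars from 0) by library for large subunit and small subunit genes of the mitochondrial ribosome, cytosolic ribosomal proteins and nuclear oxidative phosphorylation subunits, each with 95% exact binomial intervals. In all 4 panels the −7 d bar is the highest and the +3 d bar the lowest, and the axes differ in scale.

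Genes were called by the Audic-Claverie test on the tag counts, with a false discovery rate (FDR, Benjamini-Hochberg over all genes with a tag in either library) of at most 0.001 and at least a 2-fold difference of TPM. Since the milk protein tags change the scale, each ratio was also set against the median ratio of all genes, which was −0.19 for −7 d over −35 d, −0.31 for +3 d over −7 d and −0.53 for +3 d over −35 d on the log2 scale. TMM scaling moved all log2 ratios on clean tag totals up by 0.19, 0.31 and 0.50, which brought the all-gene medians close to 0.

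In stage I (−7 d compared with −35 d) 3 mitochondrial ribosomal protein genes were upregulated and 1 was downregulated among 67 tested. The background was 2.62% of all genes called higher and 6.45% called lower, so that 4.48% and 1.49% of the tested mitochondrial ribosomal protein genes were called. The median log2 ratio was 0.06, which was 0.25 above the all-gene median, and 47 of the 65 genes were above that median. A gene's 95% interval lay wholly above the all-gene median for 25 (38.5%) and wholly below it for 6 (9.23%) of the 65 genes, against 25.2% and 22.6% of all genes. After TMM scaling 4 genes were upregulated and none was downregulated, against 8.12% of all genes called in either direction. The 4 were the 3 upregulated genes and MRPL16, and the call of MRPS33 was lost.

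MRPS6 was at 268, 619 and 345 tags at −35 d, −7 d and +3 d, or 45.3, 111 and 59.0 TPM. The −7 d library stood above both others, and no pair of counting intervals overlapped. Its stage I log2 ratio was 1.29 (interval 1.08 to 1.50), a 2.44-fold difference (Audic-Claverie FDR = 1.28e-35). MRPL21, a large subunit protein of bacterial descent, was at 171, 365 and 203 tags (28.9, 65.3 and 34.7 TPM). It too was highest at −7 d, and its −35 d and +3 d intervals overlapped. The log2 ratio was 1.17 (0.91 to 1.45), 2.26-fold (Audic-Claverie FDR = 1.92e-18). MRPS30, which carries a small subunit symbol but is placed in the large subunit in structures of the mammalian particle, was a low-abundance transcript with 25, 65 and 30 tags (4.23, 11.6 and 5.13 TPM). Its pattern was the same, again with overlapping −35 d and +3 d intervals. The log2 ratio was 1.44 (0.77 to 2.19), 2.75-fold (Audic-Claverie FDR = 3.75e-05). Under TMM scaling the stage I log2 ratios of MRPS6, MRPL21 and MRPS30 were 1.48, 1.36 and 1.63.

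MRPL16, which lies near the tRNA sites of the large subunit, was just short of the 2-fold threshold. It had 100, 183 and 88 tags (16.9, 32.7 and 15.1 TPM), a stage I log2 ratio of 0.95 (0.59 to 1.32) and 1.94-fold more TPM at −7 d (Audic-Claverie FDR = 4.85e-07). With TMM scaling the ratio was 1.14 and the gene was called. MRPL13, a large subunit protein of bacterial descent, was the next highest of the named genes, with 117, 177 and 144 tags and a log2 ratio of 0.68 (0.33 to 1.03).

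MRPS33, a small protein of the mitochondrial small subunit, went the other way. It had 240 tags at −35 d and 107 and 109 tags in the later libraries (40.6, 19.1 and 18.6 TPM). The −35 d library was high and the other two overlapped. The stage I log2 ratio was −1.08 (−1.43 to −0.75), 2.12-fold less at −7 d (Audic-Claverie FDR = 2.53e-10), and the ratio of +3 d to −35 d was −1.12 (Audic-Claverie FDR = 2.25e-11). With TMM scaling these ratios were −0.89 and −0.62, both under the 2-fold threshold, though the interval of each stayed below the all-gene median. MRPS18C had a lower stage I ratio still (19, 6 and 9 tags, log2 ratio −1.50, interval −3.20 to −0.20) but did not pass the test (Audic-Claverie FDR = 0.0378). MRPL32 (76, 41 and 18 tags), MRPL38 (106, 58 and 62 tags) and MRPS12 (58, 35 and 30 tags) had stage I log2 ratios of −0.80, −0.78 and −0.64 and were not called.

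In stage II (+3 d compared with −7 d) 11 of 68 genes were downregulated and none was upregulated, that is 16.2% called lower. The background in all genes was 3.12% called higher and 10.4% called lower. The median log2 ratio was −0.68, or −0.37 relative to all genes, and 53 of 65 genes were below the all-gene median. No gene had its interval wholly above that median (23.7% of all genes did), and 33 genes (50.8%) had it wholly below (25% of all genes did). With TMM scaling 4 genes were downregulated, against 10.8% of all genes called in either direction. The 11 genes were MRPL1, MRPL3, MRPL15, MRPL16, MRPL18, MRPL34, MRPS5, MRPS7, MRPS22, MRPS26 and MRPS30, and MRPL15, MRPL18, MRPS22 and MRPS26 were called with TMM scaling too.

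MRPS26 had 595, 623 and 215 tags at −35 d, −7 d and +3 d. The libraries before parturition overlapped, and +3 d was far below them. The stage II log2 ratio was −1.60 (−1.83 to −1.37), 3.03-fold less at +3 d (Audic-Claverie FDR = 2.45e-49), and −1.29 with TMM scaling. MRPL15, a large subunit protein of bacterial descent, had 52, 44 and 12 tags (8.79, 7.87 and 2.05 TPM). Here too the libraries before parturition overlapped and +3 d was below them. The log2 ratio was the lowest of all 65 genes at −1.90 (−2.99 to −0.99), 3.83-fold (Audic-Claverie FDR = 2.9e-05), and −1.59 with TMM scaling. MRPS26 and MRPL15 were the 2 genes past a 3-fold threshold.

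MRPL18, which in bacteria binds the small ribosomal RNA of the central protuberance, had 86, 86 and 33 tags (14.5, 15.4 and 5.65 TPM). Only the +3 d library stood apart. The stage II log2 ratio was −1.43 (−2.07 to −0.85; Audic-Claverie FDR = 1.41e-06), or −1.12 with TMM scaling. MRPS22, a mitochondria-specific small subunit protein in which human mutations cause respiratory chain deficiency, had 158, 99 and 40 tags (26.7, 17.7 and 6.84 TPM). All 3 intervals were separate, and each library was below the one before it in time. The stage II log2 ratio was −1.36 (−1.94 to −0.83; Audic-Claverie FDR = 6.15e-07), or −1.05 with TMM scaling.

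MRPS7, in the head of the small subunit, had 95, 73 and 29 tags (16.1, 13.1 and 4.96 TPM) and a stage II log2 ratio of −1.38 (−2.07 to −0.76; Audic-Claverie FDR = 1.82e-05). MRPS5, at the mRNA entry channel, had 96, 113 and 50 tags and a ratio of −1.23 (Audic-Claverie FDR = 8.37e-07). MRPL1, on the flexible stalk at the tRNA exit side, had 62, 72 and 32 tags and a ratio of −1.22 (Audic-Claverie FDR = 0.000125). In all 3 the −35 d and −7 d intervals overlapped and the +3 d interval was below both. MRPL3 (631, 566 and 290 tags; log2 ratio −1.03; Audic-Claverie FDR = 5.93e-23) and MRPL34 (265, 256 and 132 tags; −1.02; Audic-Claverie FDR = 1.09e-10) passed close to the 2-fold threshold. MRPL16 (−1.12; Audic-Claverie FDR = 4.81e-09) and MRPS30 (−1.17; Audic-Claverie FDR = 0.000498) were the genes of this group that had been high at −7 d, and both were back within the counting interval of −35 d at +3 d. These 7 genes had TMM-scaled ratios between −1.07 and −0.71, of which that of MRPS7 missed the FDR threshold (TMM-scaled Audic-Claverie FDR = 0.00152) and those of the others were under 2-fold.

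Other members differed little between −7 d and +3 d. MRPL37 had 132, 131 and 140 tags (22.3, 23.4 and 23.9 TPM), and MRPL48 57, 61 and 60 tags, both mitochondria-specific large subunit proteins. All 3 intervals overlapped in each, and the stage II log2 ratios were 0.03 (−0.32 to 0.39) and −0.09 (−0.63 to 0.45). MRPL38 and MRPS33 stood at 0.03 and −0.04 after their lower values at −7 d. MRPS11, on the platform beside the mRNA exit, had 105, 84 and 80 tags and a ratio of −0.13 (−0.59 to 0.33). MRPS18C had the highest stage II ratio of the 65 genes, 0.48, on 6 and 9 tags, with an interval of −1.13 to 2.29. MRPL30, at 14, 16 and 6 tags, had a ratio of −1.41 that did not pass the test (interval −3.12 to −0.05; Audic-Claverie FDR = 0.0593).

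**Figure D3:**
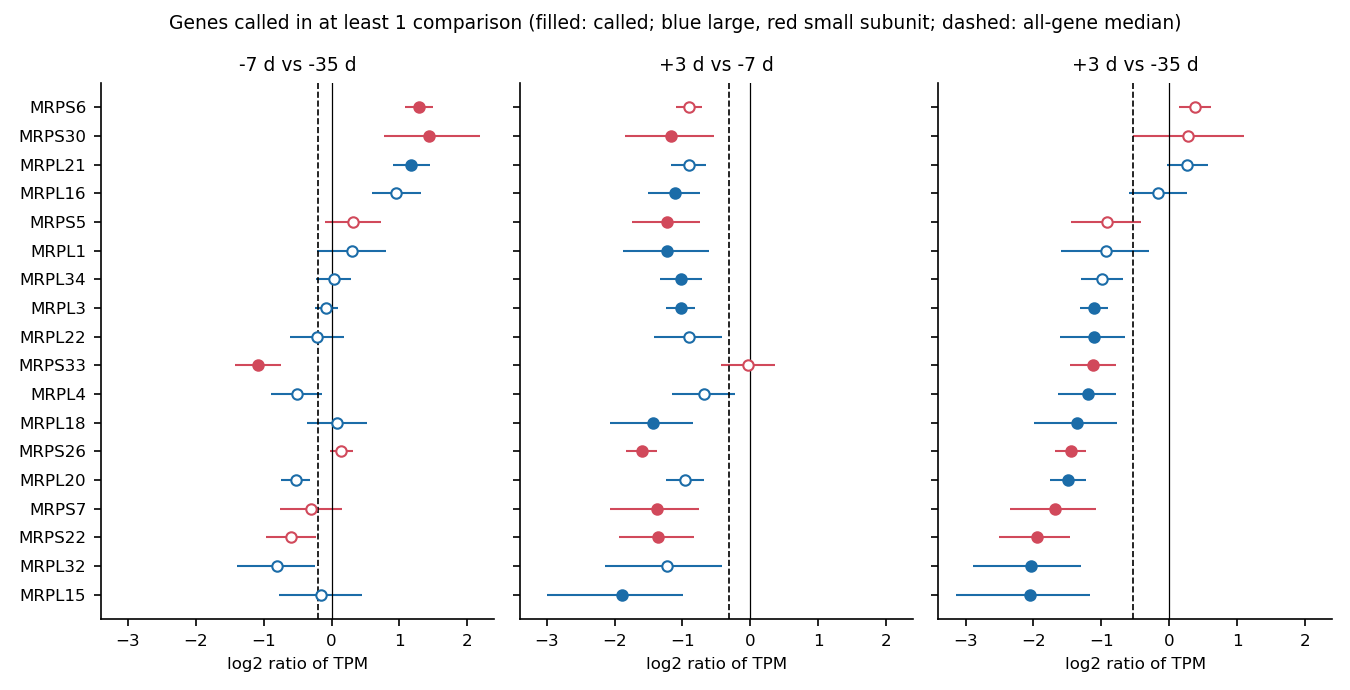
Log2 ratio of TPM with its 95% exact binomial interval for the 18 genes called in at least 1 comparison, one panel per comparison. Filled points are called, blue is large and red is small subunit by symbol, the solid line marks 0 and the dashed line the median of all genes. Filled points lie right of 0 for 3 genes in the first panel and left of 0 in all other cases.

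Over the whole interval (+3 d compared with −35 d) 11 of 68 genes were again downregulated and none was upregulated. That share, 16.2%, was near the background of 16.3% of all genes called lower, with 2.33% called higher. The median log2 ratio was −0.65, or −0.12 relative to all genes, and 27 of the 65 genes were above the all-gene median. Intervals wholly above it were found for 15 genes (23.1%) and wholly below it for 13 (20%), against 26.9% and 24.5% of all genes. With TMM scaling 4 genes were downregulated and 1, MRPL23, was upregulated, against 11.2% of all genes called in either direction. The call of MRPL23 rested on 0 against 10 tags and no fold is given (TMM-scaled Audic-Claverie FDR = 0.000504, and 0.00249 without that scaling).

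The 11 genes were MRPL3, MRPL4, MRPL15, MRPL18, MRPL20, MRPL22, MRPL32, MRPS7, MRPS22, MRPS26 and MRPS33. MRPL15 and MRPL32 had the lowest log2 ratios, −2.05 (−3.14 to −1.17; 4.28-fold less; Audic-Claverie FDR = 1.64e-06) and −2.03 (−2.89 to −1.31; 4.17-fold less; Audic-Claverie FDR = 6.19e-09). MRPL32, a protein that is cut by the m-AAA protease before it enters the ribosome, had 76, 41 and 18 tags (12.8, 7.33 and 3.08 TPM), with no overlap between any 2 intervals. MRPS22 followed at −1.95 (−2.50 to −1.46; 3.90-fold; Audic-Claverie FDR = 1.17e-16) and MRPS7 at −1.68 (−2.35 to −1.08; 3.24-fold; Audic-Claverie FDR = 1.25e-08). These 4 genes had TMM-scaled ratios of −1.56, −1.53, −1.45 and −1.18 and were called under that scaling.

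MRPL20 had 458, 300 and 161 tags and, like MRPS22 and MRPL32, stood lower in each later library with separate intervals. Its log2 ratio of +3 d to −35 d was −1.49 (−1.76 to −1.23; Audic-Claverie FDR = 5.3e-32), and −0.99 with TMM scaling. MRPL4 and MRPL22, which line the peptide tunnel, had 154, 102 and 66 tags and 121, 99 and 55 tags. Both were lowest at +3 d, and the log2 ratios of +3 d to −35 d were −1.20 and −1.11 (Audic-Claverie FDR = 1.92e-08 and 3.4e-06). With TMM scaling these were −0.70 and −0.62 and neither was called.

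At the other end were genes that stood at or above their −35 d level at +3 d. The 5 highest log2 ratios of +3 d to −35 d were those of MRPS6 (0.38, interval 0.15 to 0.62), MRPL13 (0.32, −0.05 to 0.68), MRPS30 (0.28, −0.53 to 1.11), MRPL21 (0.26, −0.04 to 0.57) and MRPS2 (0.18, −0.12 to 0.48). None reached 2-fold, and for MRPS6 alone of these 5 did the interval exclude 0. MRPS2, a small subunit protein of bacterial descent, had 177, 211 and 198 tags, with all 3 intervals overlapping. Against the all-gene median, the intervals of MRPS6, MRPL13, MRPL21 and MRPS2 were wholly above and that of MRPS30 reached it.

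**Figure D4:**
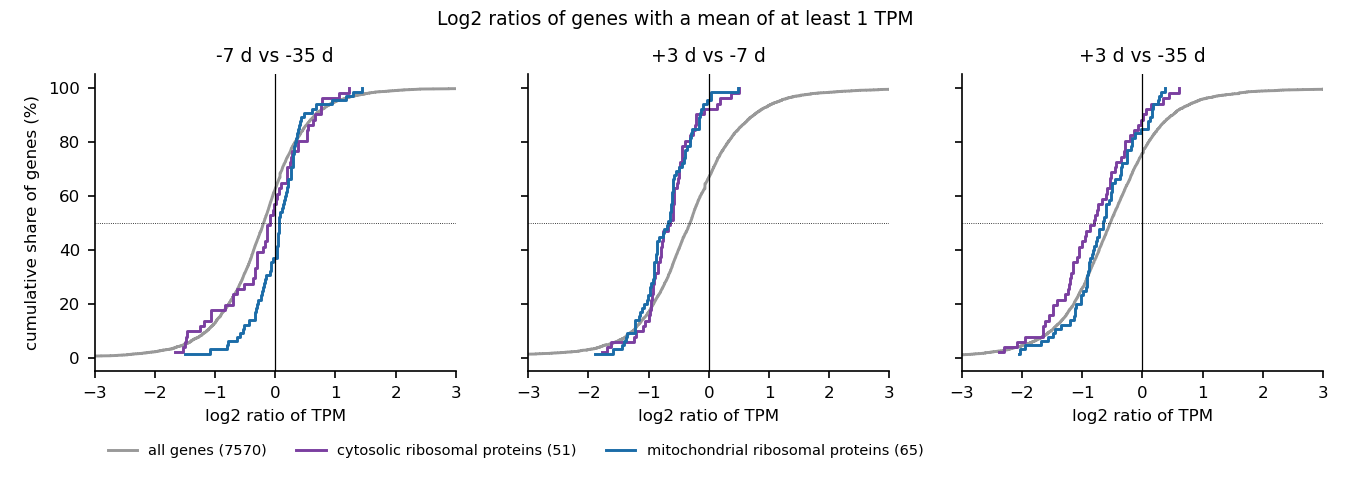
Cumulative share of genes (%) by log2 ratio of TPM in each comparison, for all genes (7570), cytosolic ribosomal proteins (51) and mitochondrial ribosomal proteins (65), each at a mean level of 1 TPM or more. The mitochondrial curve is right of the all-gene curve at 50% in the first panel (medians 0.06 and −0.19), left of it in the second (−0.68 and −0.31) and close to it in the third (−0.65 and −0.53).

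The 2 subunits had like medians in stage I, 0.11 for the large and 0.03 for the small. In stage II they were −0.64 and −0.83, and from −35 d to +3 d −0.60 and −0.84, so that the large subunit median was 0.07, 0.19 and 0.24 above that of the small subunit. The quartiles of the small subunit genes were −1.08 and −0.31 in stage II and those of the large subunit genes −0.92 and −0.41, so that the spread of the small subunit covered that of the large. By symbol, calls were spread over both subunits, with 1 large and 3 small subunit genes called in stage I. They numbered 6 and 5 in stage II, and 7 and 4 from −35 d to +3 d. MRPS30, called in stage I and stage II, counts as small throughout, although structures place it in the large subunit. Genes with bacterial numbers had medians of 0.08, −0.86 and −0.71, and those with higher numbers 0.06, −0.60 and −0.60. In stage II 8 of 38 bacterial-numbered (21.1%) and 3 of 30 mitochondria-specific genes (10%) were called lower, against 10.4% of all genes. With TMM scaling 2 genes of each group were called. No test of these differences was made, because genes of 1 library are not replicates.

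The members did not differ between libraries by 1 common ratio. The interval of a gene excluded the members' own median for 20 of 65 genes in stage I, 21 in stage II and 29 from −35 d to +3 d (30.8%, 32.3% and 44.6%). Over all genes, with intervals of about the same width, the shares that excluded the all-gene median were 47.8%, 48.7% and 51.4%. The standard deviation of the log2 ratios was 0.50, 0.44 and 0.58 among the 65 genes and 0.85, 0.99 and 1.02 among all genes.

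The −7 d library was the highest and the +3 d library the lowest for 31 of the 65 genes (47.7%), against 1664 of all 7570 genes, and for 26 genes with TMM scaling. Taken separately, the −7 d library was the highest for 40 of the 65 genes, −35 d for 24 and +3 d for 1, MRPL37, where the 3 intervals overlapped. Over all genes the shares were 30.3% for −7 d, 53.7% for −35 d and 16.0% for +3 d. The +3 d library was the lowest for 53 genes (81.5%; all genes 58.3%). With TMM scaling −7 d was highest for 41, −35 d for 16 and +3 d for 8 genes. The all-gene shares under that scaling were 32.1%, 33.3% and 34.6%. For 17 genes (26.2%) the interval was wholly above the all-gene median in stage I and wholly below it in stage II, against 12.6% of all genes and 23 of 51 cytosolic ribosomal protein genes (45.1%). Both intervals use the −7 d library, so that a chance deviation of that library alone would give such a pair. Interval shares also depend on depth. Median interval widths in stage I and stage II were 0.14 and 0.16 for the cytosolic genes and 0.75 and 0.88 for the members. Without regard to intervals, −7 d was the highest and +3 d the lowest library for 33.3% of the cytosolic genes, against 47.7% of the members.

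**Figure D5:**
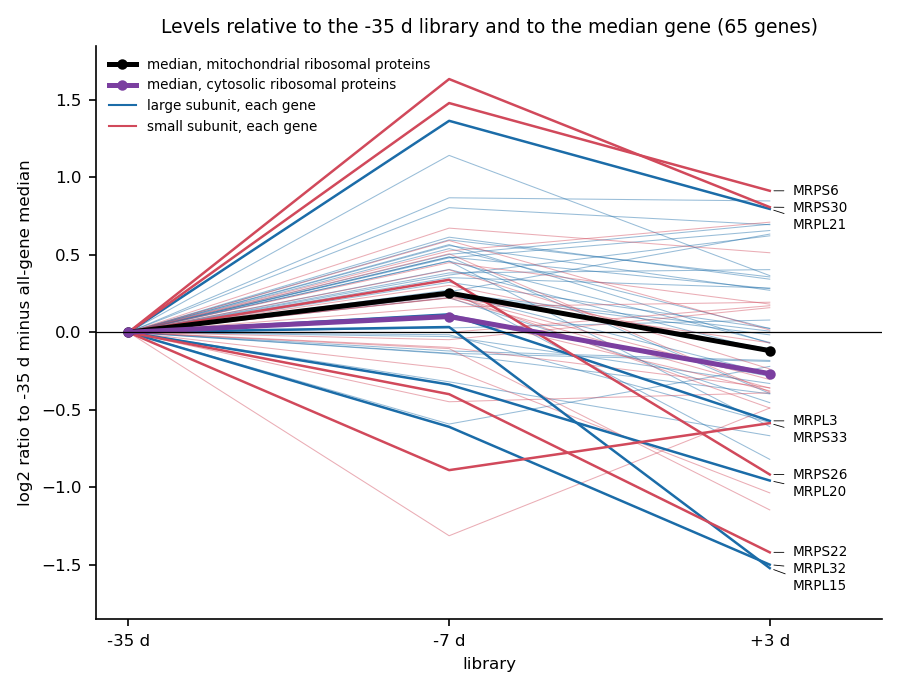
Log2 ratio to the −35 d library minus the all-gene median, by library, for each of the 65 genes (thin lines; blue large, red small subunit) with 10 labelled genes in heavier lines and the medians of mitochondrial (black) and cytosolic (purple) ribosomal proteins. The black line goes to 0.25 at −7 d and −0.12 at +3 d, and the genes spread from above 0.5 to below −1.4 at +3 d.

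Cytosolic ribosomal proteins were set beside them because both ribosomes supply the same respiratory chain. The 52 listed cytosolic genes held far more tags, with summed levels of 47637, 51663 and 30922 TPM. Mitochondrial ribosomal protein tags per 100 cytosolic ribosomal protein tags were 3.79, 3.91 and 3.99 at the 3 time points, with intervals of 3.72 to 3.86, 3.84 to 3.98 and 3.90 to 4.09. This ratio rests on tags unique to the listed genes, so it does not count ribosomes of either kind. It does not depend on the milk protein tags. It was lower at −35 d than at +3 d beyond counting error, as the 2 intervals did not overlap. Median log2 ratios of the cytosolic genes were −0.09, −0.64 and −0.80, so that the mitochondrial median was above the cytosolic one by 0.15 in stage I and from −35 d to +3 d, and 0.04 below it in stage II. Calls in the cytosolic group were 2 higher and 7 lower in stage I, 5 lower in stage II and 21 lower of 52 from −35 d to +3 d, on deeper counts. The shares called lower were 13.5%, 9.62% and 40.4%, against 6.45%, 10.4% and 16.3% of all genes. In stage I 3.85% were called higher, against 2.62% of all genes. With TMM scaling the cytosolic calls were 2 higher and 5 lower, 3 lower, and 1 higher and 7 lower. Under that scaling 8.12%, 10.8% and 11.2% of all genes were called in either direction. Within the cytosolic group RPL22L1 (219, 432 and 332 tags) was among the genes upregulated in stage I, and RPS18 (9645, 10977 and 3556 tags) and RPL7 (1149, 1093 and 370 tags) were downregulated in stage II.

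Subunits of the respiratory chain and ATP synthase encoded in the nucleus, the partners of the proteins that the mitochondrial ribosome makes, summed to 7081, 7317 and 4427 TPM over 71 genes. The tags of mitochondrial ribosomal protein genes per 100 tags of these were 25.5 (24.9 to 26.0), 27.6 (27.0 to 28.2) and 27.9 (27.2 to 28.6). The −35 d library was below both later libraries, whose intervals overlapped. Medians of the 69 oxidative phosphorylation genes that reached the 1 TPM bound were −0.01, −0.79 and −0.75. Of all 71, 1 was called higher and 5 lower in stage I, 19 lower in stage II and 27 lower from −35 d to +3 d. The shares called lower were 7.04%, 26.8% and 38.0%, against 6.45%, 10.4% and 16.3% of all genes. With TMM scaling 4 were called higher and 4 lower in stage I, 2 lower in stage II, and 2 higher and 10 lower from −35 d to +3 d. Under that scaling 8.12%, 10.8% and 11.2% of all genes were called in either direction.

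A few members are of interest for their roles. MRPL12, the stalk protein that recruits translation factors and also binds the mitochondrial RNA polymerase, had 88, 106 and 61 tags (14.9, 19.0 and 10.4 TPM). It was highest at −7 d, though the −35 d and −7 d counting intervals overlapped. Its stage II log2 ratio of −0.86 (−1.34 to −0.39) was under 2-fold (Audic-Claverie FDR = 0.000595). MRPS12, which shapes the decoding centre, had 58, 35 and 30 tags, with a ratio of +3 d to −35 d of −0.92 (−1.62 to −0.27) that was not called (Audic-Claverie FDR = 0.00797). Mammals have 3 paralogues of the bacterial protein S18, of which MRPS18A and MRPS18C were measured. MRPS18A had 94, 96 and 59 tags and was lowest at +3 d, while MRPS18C had 19, 6 and 9 tags and was highest at −35 d. The MRPS18A interval of stage I, −0.31 to 0.54, and that of MRPS18C, −3.20 to −0.20, overlapped slightly, and neither gene was called in any comparison.

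The 7 subunits of the particle that carry names of their own were listed in every library. Their medians were 0.13, −0.97 and −0.69, and their stage I ratios were all above the all-gene median. No gene was called in stage I. In stage II CHCHD1 (152, 142 and 70 tags; log2 ratio −1.08; Audic-Claverie FDR = 6.81e-07), PTCD3, which guides mRNA into the small subunit (92, 109 and 56 tags; −1.02; Audic-Claverie FDR = 4.30e-05), and MRP63 (186, 236 and 113 tags; −1.12; Audic-Claverie FDR = 1.65e-11) were downregulated, and CHCHD1 also from −35 d to +3 d (−1.10). With TMM scaling none of the 7 was called in any comparison. ICT1, a peptidyl-tRNA hydrolase built into the large subunit, had 272, 277 and 148 tags and a stage II ratio of −0.97. GADD45GIP1 had 122, 126 and 119 tags, and its 3 levels differed by less than counting error. DAP3, the GTP-binding protein of the small subunit, had 67, 78 and 50 tags and AURKAIP1 344, 350 and 237 tags, both highest at −7 d and lowest at +3 d. In both the −35 d and −7 d counting intervals overlapped. Of the 7, 42.9% were called lower in stage II and 14.3% from −35 d to +3 d, against 10.4% and 16.3% of all genes. With these 7 genes and the gene similar to MRPL17 added to the members, 14 of 76 genes were called lower in stage II. From −35 d to +3 d 12 of them were, beside the same all-gene shares.

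Mitochondrial translation factors work on these ribosomes, and 11 of 14 listed factors were in the tables. None was called in any comparison, with medians of 0.37, −0.77 and −0.57. TUFM, the elongation factor that brings aminoacyl-tRNA, had 386, 471 and 256 tags (65.3, 84.2 and 43.8 TPM) and log2 ratios of 0.37, −0.94 and −0.57. It was highest at −7 d and lowest at +3 d.

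Factors that assemble the mitochondrial ribosome or process its RNA were represented by 14 genes, from 30 symbols searched. None was called in stage I. In stage II C1QBP (554, 550 and 229 tags; log2 ratio −1.33; Audic-Claverie FDR = 3.44e-33), FASTKD2 (127, 137 and 66 tags; −1.11; Audic-Claverie FDR = 5.71e-07) and MTERFD1, a large subunit assembly factor (79, 89 and 45 tags; −1.04; Audic-Claverie FDR = 0.000188), were downregulated. Between −35 d and +3 d C1QBP, the RNA helicase DHX30 (718, 541 and 289 tags; −1.29), the large subunit assembly factor MALSU1, listed as MGC152190 (261, 213 and 124 tags; −1.05), and METTL17, listed as METT11D1 (40, 14 and 13 tags; −1.57), were downregulated. The shares called lower were 21.4% in stage II and 28.6% between −35 d and +3 d, against 10.4% and 16.3% of all genes. With TMM scaling the stage II call of C1QBP alone was left. The medians of the 13 assembly genes that reached 1 TPM were 0.04, −0.59 and −0.84, with MTG1, a GTPase of late large subunit assembly, at 101, 98 and 123 tags.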

How the data were processed

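Bovine mammary tissue was profiled by DGE in 3 libraries, each from the pooled tissue of 6 cows. The authors removed adaptor tags, tags with unknown bases, tags of wrong length and tags seen once, and mapped the clean tags (CATG and 17 bases) to bovine transcripts of UMD 3.1 with at most 1 mismatch. The deposited gene counts are the unambiguous clean tags that the authors summed per gene after they dropped any tag that matched more than 1 gene, and the mapping software is not given in the sources used here. The deposited TPM values were made by the authors from those tags and the total of clean tags, without length scaling, and differed by at most 0.0050 from the same quotient recomputed here. The deposited summary of mapping classes was not used for values. It counts more genes with unambiguous tags than the gene tables list, so that a gene not listed, taken here as 0 tags, may have had some.

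Tables were joined by accession. Symbols were the last name in brackets of each description, and the MRPL or MRPS symbols with a number were the members. The members and the companion lists were chosen with earlier results of these data known. The Audic-Claverie test (2 times the smaller tail, Benjamini-Hochberg) was run over all genes with a tag in either of 2 libraries. Calls needed an FDR no higher than 0.001 and a 2-fold or larger difference of TPM, where 0 TPM was set to 0.01. Ratios and medians had 0.5 tags added to each count, and medians used genes with a mean level of 1 TPM or more. Intervals were 95% exact Poisson intervals for levels and exact binomial ones for ratios and sums. A second description asked whether the interval of a ratio lay on one side of the all-gene median, a rule added after the data were seen. No fold is given at 3 tags or fewer.

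Genes were named if called in any comparison, if among the 5 highest or lowest ratios (at least 20 tags over the pair), if among the 5 with the most tags in a library, if not listed in every library, or as the MRPS18 family, MRPL12 and MRPS12. That gave 34 genes. Companion genes were named if called or at an extreme of their list, and TUFM, ICT1, GADD45GIP1, DAP3 and AURKAIP1 were named after their values were seen. Alternatives were TMM (edgeR 4.0.16) and DESeq2 1.42.0 scaling, totals without the 5 milk protein genes or of gene tags only, Fisher's exact test, the exact test of edgeR when pools are taken to vary by a biological coefficient of 0.2, other thresholds, filters and added tags, and the 7 subunits of other names with the gene similar to MRPL17 added. The calling was tried on simulated counts with Poisson error only and no spread between cows. That trial covers neither the spread between pools nor calls near the 2-fold threshold. Python 3.11.15 with scipy 1.17.1 and R 4.3.3 were used. Symbols were checked against ARS-UCD2.0, which is not the build of the files, so no coordinates are given. The values of 1 cytosolic gene are not reported here.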

Additional observations from a re-analysis of the deposited data

How the results depend on the processing

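With 1 library per group no library could be left out and no spread between cows enters any value. No paired analysis was possible because each group has 1 library. The number of called members depended on thresholds and scaling. In stage I it was 4, and 0 at a 3-fold threshold, 18 at an FDR of 0.05 without a fold threshold and 31 by the interval against the all-gene median. In stage II it was 11, and 4 with TMM, with DESeq2 size factors or with totals without the milk protein genes, 31 with totals of gene tags, 2 at 3-fold, 43 at an FDR of 0.05 and 33 by the interval. Between −35 d and +3 d it was 11, and 5 with TMM or DESeq2 size factors, 7 without the milk protein genes, 30 with totals of gene tags, 4 at 3-fold, 43 at an FDR of 0.05 and 28 by the interval. Fisher's exact test gave the same 4, 11 and 11 genes. The exact test of edgeR, with pools taken to vary by a coefficient of 0.2, called 0 members in each comparison, with 6 of 67, 20 of 68 and 14 of 68 members at an unadjusted p under 0.05 and lowest adjusted p of 0.0648, 0.00761 and 0.00245, while 15.4%, 20.1% and 26.8% of all genes were under 0.05. Over all genes the calls were 813, 1189 and 1672, with 1004 between −35 d and +3 d under TMM. They were 2053 (stage II) and 3019 (−35 d to +3 d) with totals of gene tags. In the order of the comparisons they were 3522, 3841 and 4606 at an FDR of 0.05, 317, 440 and 659 at 3-fold, and 54, 160 and 156 with the assumed spread. Results of single genes named by the rule, not of all members, gained a call in 49 and lost it in 88 cases, and no call was reversed.

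The median log2 ratio of the members was 0.25 in stage I with TMM or DESeq2 size factors. In the same stage it was 0.12 without the milk protein genes and 0.03 with totals of gene tags. In stage II it was −0.37 with TMM, −0.36 with DESeq2 size factors, −0.37 without the milk protein genes and −1.04 with totals of gene tags. Between −35 d and +3 d the same settings gave −0.15, −0.13, −0.29 and −1.04. The sign of single ratios changed with TMM for 6, 9 and 13 of 65 members. The difference of the members' median from that of all genes kept its direction under each filter and added tag count tried. So did the differences between the mitochondrial and the cytosolic genes and between the subunits. These last were all smaller than the margin that the spread among genes gives the medians. That margin was 0.21, 0.19 and 0.32 for mitochondrial against cytosolic genes and 0.25, 0.28 and 0.38 for the subunits. The difference from all genes between −35 d and +3 d (−0.12) was also within its margin of 0.17. Summed levels were 4453, 4881 and 2329 per 1000000 gene tags, 2107 at −7 d and 1595 at +3 d without the milk protein genes in the total, and 1698, 1895 and 1149 TPM without the member with the most tags. Depth limits genes such as MRPL11, MRPL17, MRPL23, MRPL30, MRPS17, MRPS18C and MRPS24, for which only large ratios could have been seen.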

Other observations

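Mitochondrial aminoacyl-tRNA synthetases and the enzymes that make mitochondrial glutaminyl-tRNA, which charge the tRNAs used on these ribosomes, were also counted. Of 24 symbols searched 19 were in the tables, with medians of 0.03 in stage I, −0.60 in stage II and −0.55 between −35 d and +3 d. NARS2, the asparagine enzyme, had 326, 198 and 69 tags, and was downregulated in stage II (log2 ratio −1.58; Audic-Claverie FDR = 5.72e-16) and between −35 d and +3 d (−2.22, interval −2.62 to −1.84; Audic-Claverie FDR = 3.71e-39). RARS2 (131, 85 and 54 tags), FARS2 (42, 26 and 9 tags) and LARS2 (46, 17 and 13 tags) were downregulated between −35 d and +3 d with log2 ratios of −1.25, −2.14 and −1.77. SARS2, the serine enzyme, had 84, 160 and 109 tags and was upregulated in stage I at 1.01 (0.62 to 1.41; Audic-Claverie FDR = 8.11e-07), close to the 2-fold threshold. TARSL2 had 44, 14 and 40 tags and was downregulated in stage I at −1.54 (Audic-Claverie FDR = 0.000718). It is named TARS3 in ARS-UCD2.0, and its place in mitochondria is doubtful. The shares of the 19 called lower were 5.26%, 5.26% and 21.1%, against 6.45%, 10.4% and 16.3% of all genes. In stage I 5.26% were called higher, against 2.62% of all genes. With TMM scaling the calls of NARS2 and SARS2 were left and the others were not, and TARSL2 was called higher in stage II.

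Genes of mitochondrial transcription, replication and RNA stability were represented by 8 of 16 symbols searched, with medians of −0.32, −0.92 and −1.02, and none was called in stage I. All 7 that reached 1 TPM had ratios of +3 d to −7 d and of +3 d to −35 d below the all-gene median. SLIRP, which stabilises mitochondrial mRNA, had 915, 644 and 331 tags and was downregulated in stage II (−1.02; Audic-Claverie FDR = 7.83e-26) and between −35 d and +3 d (−1.45; Audic-Claverie FDR = 1.11e-60). The helicase genes TWNK (listed as C26H10ORF2; 91, 121 and 44 tags) and SUPV3L1 (38, 64 and 21 tags) were highest at −7 d and downregulated in stage II, at −1.51 and −1.65. Of the 8 genes, 37.5% were called lower in stage II, against 10.4% of all genes. POLG2 (63, 31 and 18 tags), TFB2M (91, 69 and 38 tags), TWNK and SLIRP were the 4 called between −35 d and +3 d (50%, against 16.3% of all genes). With TMM scaling none of these 4 calls was left, and in stage II those of TWNK and SUPV3L1 were left. TFAM, which packs mitochondrial DNA, had only 5, 7 and 4 tags.

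Among nuclear regulators of mitochondrial genes 8 of 11 symbols searched were in the tables, with medians of −0.21, −0.61 and −0.60. MYC, a general activator of ribosome genes, was the 1 called gene, with 231, 269 and 80 tags. Its log2 ratio was −1.81 in stage II (−2.19 to −1.45; Audic-Claverie FDR = 9.00e-26) and −1.51 between −35 d and +3 d (Audic-Claverie FDR = 6.78e-17), and both calls were left with TMM scaling. NRF1 had 3, 0 and 0 tags and PPARGC1A 4, 9 and 6 tags, so that differences of either were not detectable at this depth.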
